A study of Mus musculus with 12 samples.

Results

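Interferon-stimulated genes were followed in bulk RNA libraries of mouse muscle stem cells taken before and after muscle injury. The 9 genes are Irf7, Ifit1, Ifit3, Isg15, Usp18, Oasl2, Rsad2, Bst2 and Ifi44, found by symbol in a table of 30154 genes. They were chosen by their day 21 levels, which divide by replicate number with replicate 1 above replicate 2 under both genotype labels, and those levels are given as a description, with no test. All 9 passed the filter on low counts over the 12 libraries, as did 15890 genes in all, and all 9 passed it over the 8 libraries of days 0 and 7, as did 15672 genes.

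The cells were sorted by flow cytometry as muscle stem cells from hind limb muscle of C57BL/6J mice aged 2 to 3 months. The mice were wild type or carried a knockout of Sestrin1,2, which are the stress-response genes Sesn1 and Sesn2. Each genotype was sampled on day 0, before any injury, and on days 7 and 21 after it, with 2 libraries in each of the 6 groups. The labels name neither the kind of injury nor the knockout allele, and do not say whether the libraries of a group came from separate mice, so p-values measure only the spread between these libraries, which may be technical.

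Total counts per library lay between 28396862 and 38950614. Levels below are in CPM, counts relative to library sizes after TMM scaling (a trimmed mean of log ratios between libraries). Sesn2, a target of the knockout, stood before injury at 75.1 and 84.3 CPM in replicates 1 and 2 of wild type and at 5.47 and 7.03 CPM in those of the knockout. The day 7 levels were 44.9 and 47.4 CPM in wild type and 2.36 and 1.92 CPM in the knockout. On day 21 the wild-type label held levels of 8.92 and 82.1 CPM and the knockout label 9.86 and 108 CPM, so Sesn2 went against the labels of wild-type replicate 1 and knockout replicate 2. Both libraries low in Sesn2 at day 21 are replicate 1 and both high ones are replicate 2. The division of the interferon genes by replicate number and that by Sesn2 are the same division of these 4 libraries and cannot be told apart. Sesn1, the other target, was at 43.7 and 78.3 CPM under the wild-type label at day 21 and at 41.7 and 67.2 CPM under the knockout label, also lower in replicate 1. The knockout kept part of its Sesn1 signal on the other days, at 46.0 and 45.8 CPM at day 0 and 28.4 and 22.4 CPM at day 7, beside 70.3 and 68.6 CPM and 84.0 and 67.9 CPM in wild type. The 8 muscle stem cell markers looked at, such as Pax7 and Vcam1, summed to between 1165 and 3017 CPM. Markers of fibro-adipogenic progenitors, which hold abundant matrix genes, summed to between 8046 and 28508 CPM, and those of pericytes and smooth muscle to between 3025 and 12474 CPM. In bulk RNA, fewer cells of a type and less RNA per cell cannot be told apart.

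Interferons are secreted signals that bind receptors on the cell surface and activate the kinases JAK1 and TYK2. These switch on transcription factors that, together with IRF9, bind the interferon-stimulated response element (ISRE) in the promoters of target genes. The products restrict viruses, degrade or sense RNA and tune the signal itself, and in injured muscle immune cells that enter the tissue are a known source of interferons.

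Promoters of these genes are shown because a shared response element is the textbook feature of the group. Windows of 300 bases, from 250 before to 50 after each start, were taken from RefSeq on GRCm38.p6, which matched 8 of the 9 genes by symbol. The letters GAAANNGAAA, the core of the ISRE, were searched on both strands with overlapping matches counted. At least 1 match stood in the windows of 5 of the 8 genes, namely Ifit1, Ifit3, Isg15, Rsad2 and Bst2, and in 3.44% of the 32851 promoter windows of the same length. The windows of Irf7, Oasl2 and Ifi44 hold no run of these letters. Each stretch below reads in the direction of its gene, with the matches in capitals and flanks of 20 bases, and TTTCNNTTTC is the motif read from the other strand. The stretches are at chr19:34640765-34640833 on the plus strand for Ifit1, chr19:34583353-34583436 on the plus strand for Ifit3, chr4:156200855-156200916 on the minus strand for Isg15, chr12:26456543-26456592 on the minus strand for Rsad2 and chr8:71537567-71537622 on the minus strand for Bst2.
Ifit1: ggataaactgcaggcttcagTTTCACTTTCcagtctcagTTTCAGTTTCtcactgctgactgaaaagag
Ifit3: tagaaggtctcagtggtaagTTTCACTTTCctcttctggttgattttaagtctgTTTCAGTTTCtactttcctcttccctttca
Isg15: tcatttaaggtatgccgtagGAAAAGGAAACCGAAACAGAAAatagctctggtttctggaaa
Rsad2: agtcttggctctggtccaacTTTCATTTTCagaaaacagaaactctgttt
Bst2: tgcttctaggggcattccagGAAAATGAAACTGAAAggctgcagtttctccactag

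Ifit1 and Ifit3 each hold 2 matches on the opposite strand from the gene, and Isg15 holds 3 that overlap each other. The second motif searched, TTCNNNGAA, is the core of the gamma-activated site, an element of interferon-gamma target genes. It stood in 1 of the 8 windows, that of Bst2, and in 8.3% of all windows. Among the other interferon-stimulated genes listed, 12 of 33 genes with a window held the ISRE letters in at least 1 window. The same held for 8 of 17 of the interferon-gamma and antigen presentation genes. These are counts of genes, whereas the share over all promoters counts windows. A match is a run of letters and was not tested for binding.

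At day 21 every one of the 9 genes was higher in replicate 1 than in replicate 2 under both labels, with ratios from 1.27-fold to 5.91-fold. The median log2 ratio of replicate 1 to replicate 2 was 1.44 under the wild-type label and 1.66 under the knockout label, where the medians over all 15890 genes were -0.03 and 0. Both replicate 1 libraries stood above both replicate 2 libraries in 16.8% of all genes and in all 9 members, which were chosen by these values. The ratio passed 2-fold under both labels in 6 members, against 165 of all genes, or 1.04%. The members differ in how far they divide, from Ifi44 at 1.27-fold and 1.68-fold to Ifit1 at 5.82-fold and 5.91-fold.

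Irf7, the transcription factor that amplifies interferon production and is itself induced by interferon, measured 43.8 and 17.5 CPM in replicates 1 and 2 under the wild-type label. Under the knockout label it measured 40.5 and 20.2 CPM. The ratio of 2.00-fold under the knockout label lies at the 2-fold limit, and that under the wild-type label was 2.50-fold.

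Ifit1, whose protein binds foreign RNA caps and blocks translation, gave the widest division. It was at 262 and 45.1 CPM under the wild-type label and at 253 and 42.7 CPM under the knockout label, 5.82-fold and 5.91-fold. Ifit3, its partner protein encoded nearby on the same chromosome, was at 127 and 34.4 CPM under the wild-type label. Under the knockout label it was at 141 and 37.7 CPM, so that its ratios were 3.68-fold and 3.74-fold. The Ifit3 transcript is 97.8% identical to that of Ifit3b over 1700 bases, 97.4% of its length, and its estimated counts could be split between both copies. Ifit3b carries the symbol I830012O16Rik in the deposited table and was at 26.2 and 9.40 CPM under the wild-type label and at 30.4 and 7.20 CPM under the knockout label, which is the same order.

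Isg15, a ubiquitin-like protein that is attached to other proteins, was at 50.6 and 26.0 CPM under the wild-type label. It was at 43.0 and 30.1 CPM under the knockout label, and its ratio of 1.43-fold there was the smallest of the 9 under that label. A processed pseudogene, AC151275.1, is 95.2% identical to Isg15 over 482 bases, 63.8% of its transcript, so its counts are uncertain too. Usp18, the protease that removes Isg15 and dampens signalling at the receptor, was at 35.8 and 13.2 CPM under the wild-type label. Under the knockout label it was at 32.5 and 10.2 CPM, and the ratios were 2.72-fold and 3.18-fold.

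Oasl2, of the oligoadenylate synthetase family of RNA sensors, was at 73.3 and 20.7 CPM under the wild-type label and at 62.3 and 17.6 CPM under the knockout label. Its ratio was 3.54-fold under both. Rsad2, which encodes the antiviral enzyme viperin, was at 42.6 and 8.16 CPM under the wild-type label. It reached 54.8 CPM in replicate 1 labelled knockout and 13.5 CPM in replicate 2, and its ratios of 5.22-fold and 4.06-fold were next to those of Ifit1.

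Bst2, or tetherin, which holds budding viruses at the cell surface, was at 43.5 and 22.7 CPM under the wild-type label and at 39.7 and 20.2 CPM under the knockout label. Its ratios were 1.92-fold and 1.97-fold, just under the 2-fold limit. Ifi44, a weakly expressed interferon-induced gene, was at 2.13 and 1.68 CPM under the wild-type label and at 3.43 and 2.04 CPM under the knockout label. These rest on 72 and 58 counts, and on 93 and 65 counts. In TPM, Ifi44 under the wild-type label was at 1.29 in replicate 1 and 1.46 in replicate 2, the opposite order, while the other 8 members kept theirs.

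**Figure D1:**
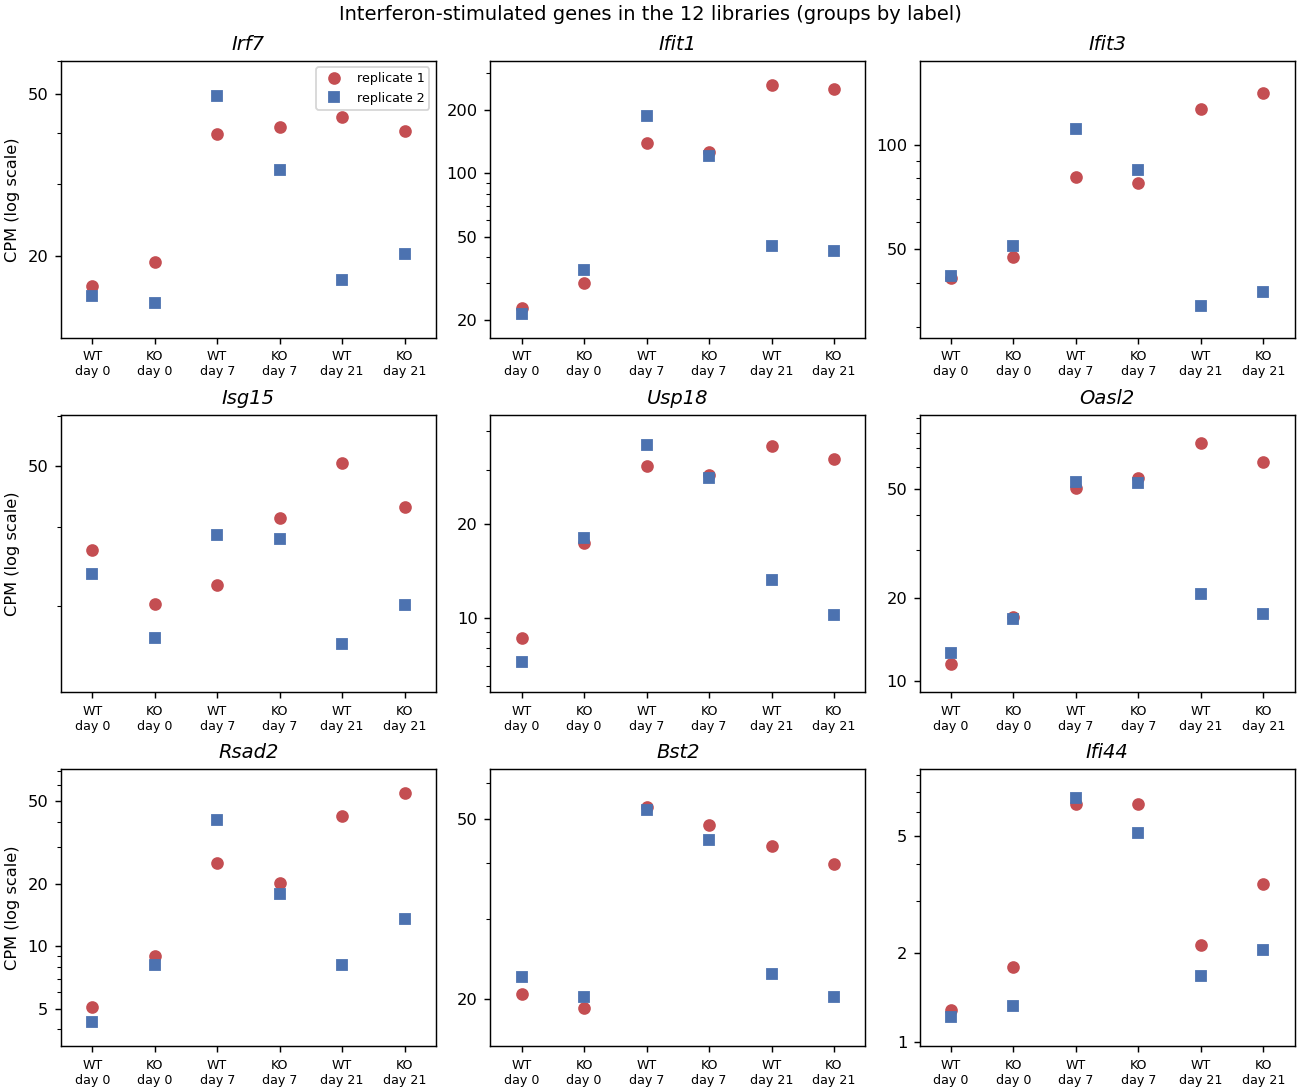
Level of each gene in CPM, on a log axis, in the 12 libraries. Circles are replicate 1 and squares replicate 2 of each group by label; at day 21 each circle lies above both squares, as with Ifit1 at 262 and 253 CPM against 45.1 and 42.7 CPM, while at days 0 and 7 no gene has circles and squares as far apart as Ifit1 at day 21; Rsad2 in wild type at day 7, at 25.3 and 40.8 CPM, is the widest there.

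The division at day 21 was not present on the other days. At day 0 the log2 ratio of replicate 1 to replicate 2 lay between -0.14 and 0.26 in wild type and between -0.19 and 0.42 in the knockout, with medians of 0.08 and 0.02. Both replicate 1 libraries stood above both replicate 2 libraries at day 0 in 1 member, Irf7, where 6.15% of all genes did so. At day 7 the ratio ran from -0.69 to 0.02 in wild type and from -0.12 to 0.34 in the knockout, with medians of -0.26 and 0.11. Replicate 2 was the higher one in 8 of 9 members in wild type at day 7, and replicate 1 in 8 of 9 in the knockout. No member had both replicate 1 libraries on top at day 7, where 12.8% of all genes had, and 1, Ifit3, had both replicate 2 libraries on top, where 9.73% had.

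**Figure D2:**
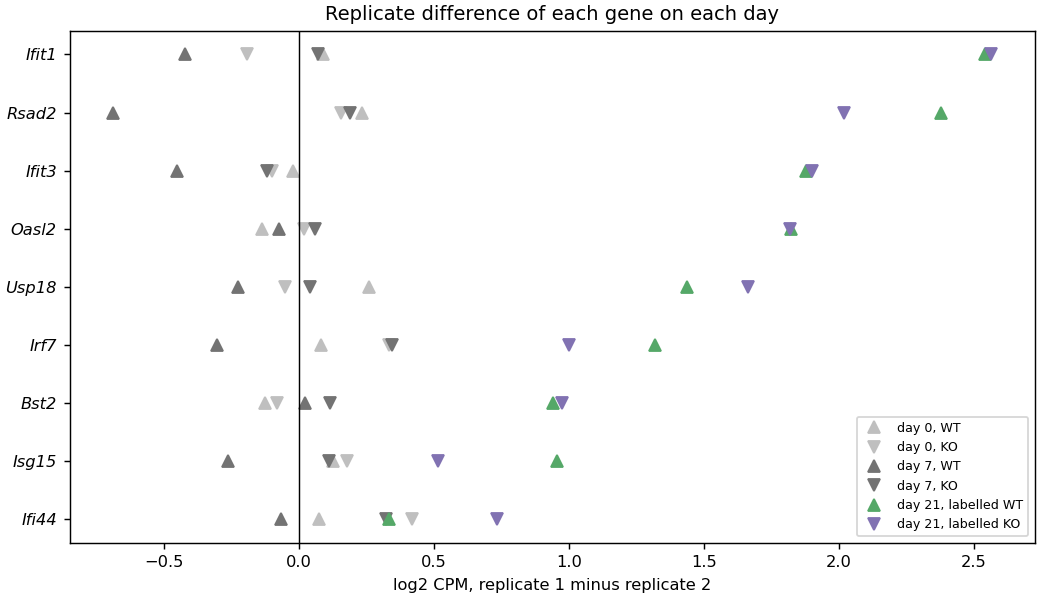
Difference in log2 CPM between replicates 1 and 2 for each gene, with upward triangles for wild type and downward triangles for the knockout by label. The day 21 differences, in colour, lie between 0.33 and 2.56, and those of days 0 and 7, in grey, between -0.69 and 0.42.

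Set against the other days, the replicate 2 libraries of day 21 lay below all 4 day 7 libraries in all 9 members, where 28.8% of all genes did so. They lay above all 4 day 0 libraries in 2 members, Ifit1 and Oasl2, where 21% of all genes did so. Ifit1 in them, at 45.1 and 42.7 CPM, was above its 21.5 to 34.5 CPM at day 0, and Oasl2, at 20.7 and 17.6 CPM, was above its 11.6 to 17.1 CPM. The replicate 1 libraries of day 21 lay above all day 0 libraries in 9 of 9 members, where 23.8% of all genes did so. In 5 members, Ifit1, Ifit3, Isg15, Oasl2 and Rsad2, they also lay above all 4 day 7 libraries, where 29.7% of all genes did. Irf7, at 43.8 and 40.5 CPM, lay within its day 7 range of 32.6 to 49.3 CPM, as did Usp18, at 35.8 and 32.5 CPM, in its range of 28.2 to 36.2 CPM. Bst2 and Ifi44 lay under their day 7 range.

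TPM, which divides by transcript length, allows levels to be compared between genes. Over the 12 libraries the mean TPM was 112 for Isg15, 88.4 for Bst2, 64.2 for Ifit3 and 58.2 for Ifit1. It was 34.6 for Irf7, 31.9 for Oasl2, 19.4 for Usp18, 7.67 for Rsad2 and 2.15 for Ifi44. Neighbours in this order overlapped in their range over libraries, such as Isg15 at 78.7 to 150.0 TPM and Bst2 at 47.0 to 146 TPM. In the day 21 replicate 1 libraries Ifit1, at 133 and 134 TPM, stood near Isg15, at 150.0 and 133 TPM, while in the replicate 2 libraries it was at 25.2 and 24.4 TPM and Isg15 at 85.1 and 99.9 TPM.

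Among the other genes of the pathway, none of the 9 listed interferon ligands passed the filter on low counts. Of these, 5 had 0 counts in all 12 libraries, where 3 counts correspond to between 0.0718 and 0.111 CPM. The highest value was 0.233 CPM, or 9 counts, for Ifng, which encodes interferon-gamma.

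At day 21 the genes of interferon-gamma response and antigen presentation divided in the same direction as the 9 members. Replicate 1 was higher under both labels in 19 of 21, with list medians of 1.19 and 1.11 in log2 ratio under the wild-type and knockout labels, and both replicate 1 libraries stood above both replicate 2 libraries in all 19. Of all genes 25% were higher in replicate 1 under both labels and 16.8% without overlap. Ifi47, a guanosine triphosphatase induced by interferon, measured 65.3 and 16.1 CPM in replicates 1 and 2 under the wild-type label and 66.0 and 15.7 CPM under the knockout label. Gbp2, a guanylate-binding protein, was at 247 and 61.8 CPM and at 230 and 69.2 CPM. Gbp3, of the same family, was at 91.2 and 38.5 CPM and at 95.0 and 27.9 CPM. In each of these 3 genes both replicate 1 libraries were above both replicate 2 libraries.

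The 42 other interferon-stimulated genes tested were higher in replicate 1 under both labels in 32 genes, 27 of them without overlap, beside 25% and 16.8% of all genes, with list medians of 0.47 and 0.55. Cmpk2, a mitochondrial nucleotide kinase beside Rsad2 in the genome, was at 62.5 and 23.1 CPM under the wild-type label and at 70.1 and 26.3 CPM under the knockout label. Rnf213, a large ubiquitin ligase, was at 56.3 and 23.4 CPM and at 39.9 and 20.0 CPM. The receptor and JAK-STAT list was mixed, with 5 of 11 genes higher in replicate 1 under both labels and medians of 0.36 and -0.04. Of the transcription factors in that list, Stat2 was at 117 and 54.2 CPM and at 125 and 90.2 CPM, and Irf9 was at 130 and 96.4 CPM and at 129 and 106 CPM. The 1 gene of the list lower in replicate 1 under both labels, named after its values were seen, was the receptor subunit Ifnar1, at 77.8 and 83.0 CPM and at 84.8 and 87.8 CPM.

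Of 17 sensors, adaptors and interferon regulatory factors, 11 were higher in replicate 1 under both labels, 7 without overlap, again beside 25% and 16.8% of all genes, with medians of 0.09 and 0.28. Irf8, a transcription factor of interferon-responsive cells, was at 124 and 94.8 CPM and at 117 and 66.8 CPM. Of 8 brakes on the signal, 4 were higher in replicate 1 under both labels, all without overlap, beside the same shares. They include Samhd1, a nucleotide hydrolase, at 113 and 54.1 CPM and at 108 and 48.9 CPM, and Socs1, an inhibitor of JAK kinases, at 55.8 and 36.1 CPM and at 66.7 and 34.1 CPM. No difference between lists was tested.

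**Figure D3:**
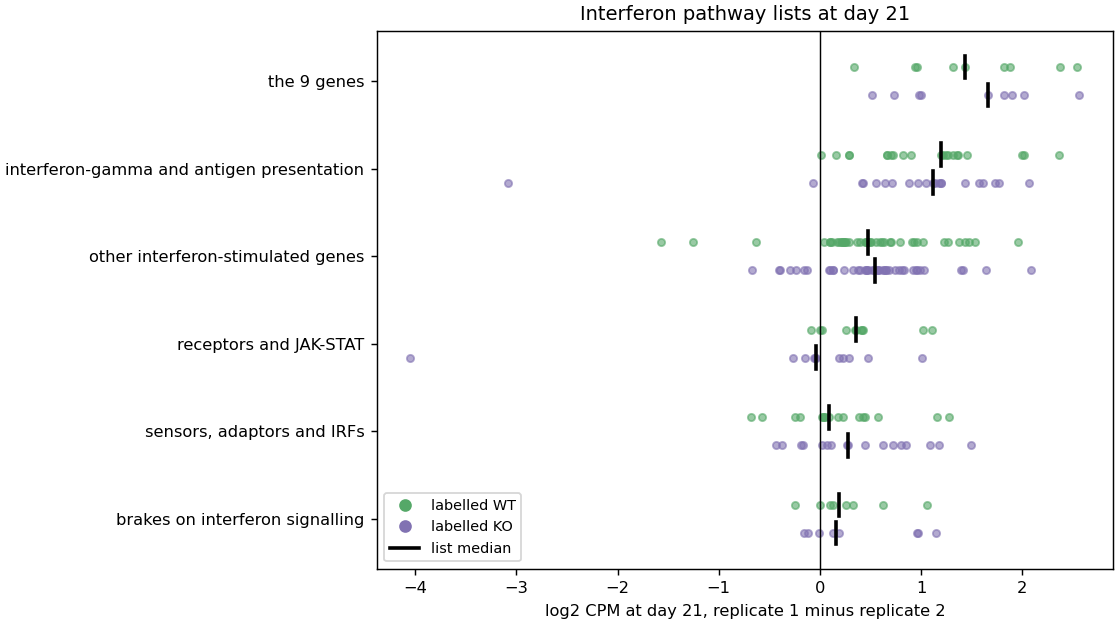
Difference in log2 CPM at day 21, replicate 1 minus replicate 2, for each gene of 6 lists that passed the filter, under the wild-type and the knockout label. Bars are list medians, at 1.44 and 1.66 for the 9 genes, 1.19 and 1.11 for the interferon-gamma list and 0.36 and -0.04 for receptors and JAK-STAT.

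Markers of other cell types at day 21 were summed for comparison. The 6 macrophage and monocyte markers other than Lyz2 summed to 10.5 and 16.1 CPM in replicates 1 and 2 under the wild-type label and to 18.0 and 26.7 CPM under the knockout label. None of the 6 was higher in replicate 1 under the wild-type label, but 4 of 6 were under the knockout label, and without Cd14, at 5.98 and 15.7 CPM there, the sums were 6.47 and 10.8 CPM and 12.04 and 10.98 CPM, so that they have no common order. Lyz2, high in every library, was at 857 and 538 CPM and at 757 and 535 CPM, higher in replicate 1 under both labels. The 4 plasmacytoid dendritic cell markers summed to 4.40 and 5.29 CPM and to 4.84 and 6.04 CPM, and without Cox6a2, which muscle fibres also express, to 2.24 and 1.85 CPM and to 1.48 and 1.48 CPM. The 8 lymphocyte markers summed to 1.59 and 3.76 CPM and to 1.37 and 1.89 CPM, with Cd3e at 0 in 3 of the 4 libraries. The sums of lymphocyte, neutrophil and pericyte markers were lower in both replicate 1 libraries than in both replicate 2 libraries, and that of Schwann cell markers, at 492 and 336 CPM and at 529 and 473 CPM, was higher in both. Endothelial markers, at 201 and 215 CPM and at 279 and 289 CPM, were lower in replicate 1 under each label and overlapped between them. The sum of the muscle stem cell markers, at 3017 and 3002 CPM and at 2716 and 2151 CPM, overlapped. The part of these cell types in the division was not tested.

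The genes whose pattern over the 12 libraries was most like the mean of the 9 members were sought among all genes that passed the filter, by the root mean square of the difference in centred log2 CPM. The closest were Zbp1, a sensor of Z-form nucleic acid, at 0.292, Eif2ak2, the RNA-activated kinase PKR, at 0.308, and Socs1 at 0.317. I830012O16Rik, which is Ifit3b, followed at 0.331, then Gbp3 at 0.353, the cadherin Cdh2 at 0.366, the interferon-inducible Mndal at 0.370 and the imprinted zinc finger gene Plagl1 at 0.370. A gene with no change over the libraries would lie at 0.765, the median gene lay at 0.898, and the members themselves lay between 0.184 for Irf7 and 0.604 for Isg15. Zbp1 was at 5.67 and 2.31 CPM under the wild-type label at day 21 and at 4.54 and 1.57 CPM under the knockout label, against 1.33 to 1.81 CPM at day 0. At day 21 Cdh2 was at 62.7 and 33.1 CPM under the wild-type label and at 61.6 and 56.8 CPM under the knockout label, and Plagl1 at 130.1 and 85.8 CPM and at 108 and 96.8 CPM, both higher in replicate 1 under each label.

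The authors also deposited batch-corrected values on a regularised log2 scale, in which the batch is not named. On this scale the division of the 9 members was absent under the wild-type label, with a median log2 ratio of replicate 1 to replicate 2 of -0.06 and 3 of 9 members higher in replicate 1. Under the knockout label it was smaller, with a median of 0.77 and 9 of 9 higher in replicate 1. Ifit1 on this scale was at 11.66 and 11.75 under the wild-type label and at 12.04 and 10.87 under the knockout label. With each gene centred over the libraries, the medians of the members at day 21 were 0.89 and -0.61 under the wild-type label and 0.75 and -0.63 under the knockout label in log2 CPM. In the batch-corrected values they were 0.08 and 0.01, and 0.39 and -0.34. At day 7 the knockout medians were 0.63 and 0.53 in log2 CPM and 0.78 and 0.26 in the deposited values. The deposited values differ from log2 CPM both in the transformation and in the correction, and the part of each was not tested.

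**Figure D4:**
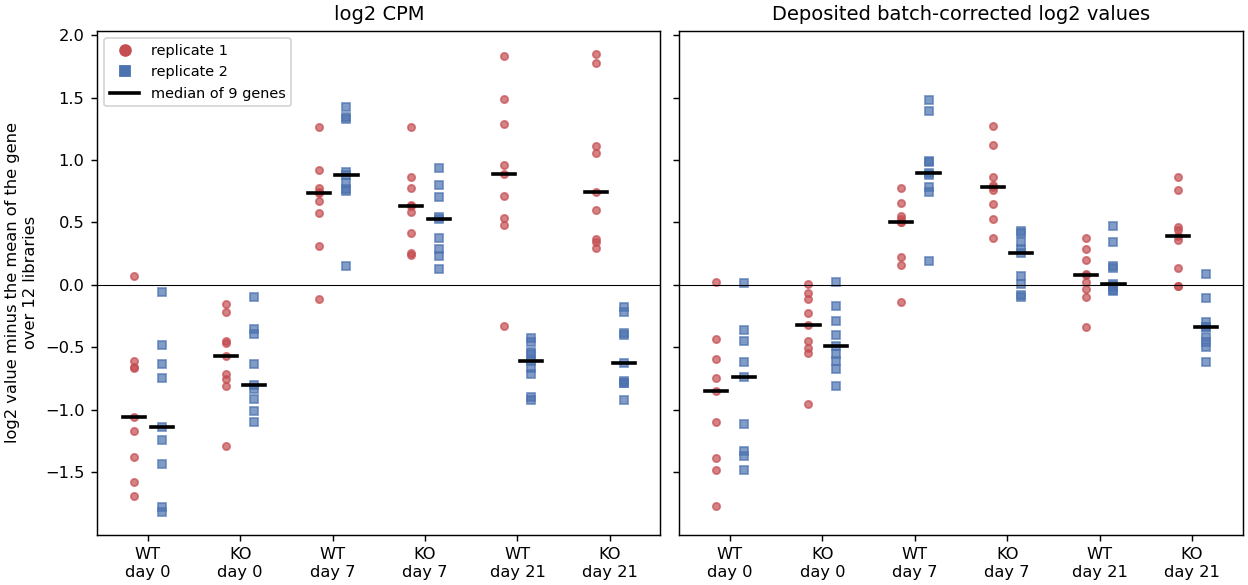
Values of the 9 genes, each centred on its mean over 12 libraries, in log2 CPM and in the deposited batch-corrected log2 values. Bars are medians of the 9 genes, which at day 21 under the wild-type label are 0.89 and -0.61 for replicates 1 and 2 in log2 CPM and 0.08 and 0.01 in the deposited values.

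Injury at day 7 raised most members in both genotypes, and this comparison did not use the day 21 libraries. In edgeR's quasi-likelihood test on the 8 libraries of days 0 and 7, with Benjamini-Hochberg adjustment over all genes tested, 8 of 9 members rose in wild type and 9 of 9 in the knockout. The threshold was an adjusted p under 0.05. In wild type 54% of all genes passed it, 27.9% upwards and 26.1% downwards, and in the knockout 54.2% did, 27.6% upwards and 26.6% downwards. The median log2 fold change of the members was 2.04 in wild type and 1.13 in the knockout, against 0.01 and 0 over all genes tested. Day 7 lay above day 0 without overlap, over the 4 libraries of each, in 8 members, all but Isg15, where 25.2% of all genes did so.

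Ifit1 was at 22.9, 21.5, 30.2 and 34.5 CPM at day 0 in replicates 1 and 2 of wild type and of the knockout, and reached 139, 187, 126 and 120.3 CPM in the same order at day 7. It rose by 2.84 ± 0.147 (log2 fold change ± SE, n = 2 per group) in wild type, with an edgeR adjusted p of 1.3e-06, and by 1.90 ± 0.142 in the knockout (edgeR adjusted p = 8.43e-06). Rsad2 was at 5.09, 4.33, 9.03 and 8.10 CPM at day 0 and reached 25.3, 40.8, 20.3 and 17.8 CPM at day 7. It rose by 2.77 ± 0.237 in wild type (edgeR adjusted p = 1.91e-05) and by 1.13 ± 0.225 in the knockout (edgeR adjusted p = 0.00266). On neither day did its wild-type and knockout libraries overlap.

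Usp18 was at 8.59, 7.17, 17.4 and 18.1 CPM at day 0 and reached 30.9, 36.2, 28.9 and 28.2 CPM at day 7, the knockout libraries standing above those of wild type at day 0 and below them at day 7. It rose by 2.05 ± 0.133 in wild type (edgeR adjusted p = 3.19e-06) and by 0.66 ± 0.127 in the knockout (edgeR adjusted p = 0.00202). Oasl2 was at 11.6, 12.7, 17.1 and 16.9 CPM at day 0 and reached 50.3, 52.9, 54.6 and 52.4 CPM at day 7, with day 7 values that overlap between genotypes. Its rises were 2.04 ± 0.0945 and 1.63 ± 0.0931, with edgeR adjusted p of 4.9e-07 and 1.24e-06.

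Ifi44 was at 1.28, 1.21, 1.79 and 1.33 CPM at day 0 and reached 6.39, 6.70, 6.39 and 5.10 CPM at day 7, above its day 21 values in every day 7 library. It rose by 2.35 ± 0.263 in wild type and 1.85 ± 0.26 in the knockout (edgeR adjusted p = 8.67e-05 and 0.000312). Bst2 was at 20.5, 22.3, 19.0 and 20.1 CPM at day 0 and reached 53.3, 52.4, 48.5 and 44.9 CPM at day 7. Its rises, 1.26 ± 0.0905 and 1.23 ± 0.0915, were nearly equal in both genotypes (edgeR adjusted p = 5.75e-06 and 6.03e-06).

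Irf7 was at 16.9, 16, 19.4 and 15.4 CPM at day 0 and reached 39.9, 49.3, 41.4 and 32.6 CPM at day 7, and rose by 1.40 ± 0.165 and 1.06 ± 0.165 (edgeR adjusted p = 0.000121 and 0.000589). Ifit3 was at 41.4, 42.0, 47.6 and 51.0 CPM at day 0 and reached 80.9, 111, 77.8 and 84.4 CPM at day 7. Its rises were smaller than those of Ifit1, 1.16 ± 0.143 in wild type and 0.69 ± 0.142 in the knockout (edgeR adjusted p = 0.000187 and 0.00322). Isg15 was at 36.8, 33.7, 30.1 and 26.6 CPM at day 0 and held 32.3, 38.8, 41.3 and 38.2 CPM at day 7. It changed by -0.03 ± 0.118 in wild type (edgeR adjusted p = 0.857) and rose by 0.46 ± 0.119 in the knockout (edgeR adjusted p = 0.0102), a call lost without knockout day 0 replicate 2 (edgeR adjusted p = 0.0796).

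The 6 macrophage and monocyte markers other than Lyz2 summed to between 9.78 and 11.5 CPM at day 0 and between 17.5 and 72.2 CPM at day 7, and Ptprc was at most 0.125 CPM at day 0 and between 0.747 and 9 CPM at day 7. With Lyz2 the same list summed to between 1775 and 2941 CPM at day 0 and between 278 and 419 CPM at day 7, the opposite order. The day 7 library with the highest macrophage sum without Lyz2, wild-type replicate 2 at 72.2 CPM, also held the highest day 7 values of Ifit1, Ifit3, Irf7, Rsad2, Usp18 and Ifi44. The one with the lowest sum, knockout replicate 2 at 17.5 CPM, held the lowest of Ifit1, Irf7, Rsad2, Bst2, Usp18 and Ifi44. Isg15 and Oasl2 were highest in knockout replicate 1 and Bst2 in wild-type replicate 1. The lowest values of Ifit3, Isg15 and Oasl2 also lay in other libraries. Endothelial markers followed the same library order, from 242 CPM in wild-type replicate 2 to 75.5 CPM in knockout replicate 2. The share of all genes highest or lowest in these libraries was not computed. Muscle fibre markers summed to between 46.3 and 70.8 CPM at day 0 and between 1316 and 2896 CPM at day 7. Fibro-adipogenic markers went from between 8046 and 14773 CPM to between 22784 and 28508 CPM. Pericyte and smooth muscle markers went from between 8189 and 12474 CPM to between 3025 and 4550 CPM. Schwann cell markers went from between 933 and 1241 CPM to between 137 and 216 CPM. The part of these cells in the rise was not tested. When all 12 libraries were fitted together, the day 21 spread entered the error, and the members were chosen for that spread. In this fit 7 of the 9 members rose in wild type, without Ifit3 (edgeR adjusted p = 0.180). In the knockout 2 of 9 did, Bst2 and Ifi44. The log2 fold changes were much the same. The lost calls are tied to how the members were chosen, so this fit cannot tell how firm the rise is.

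**Figure D5:**
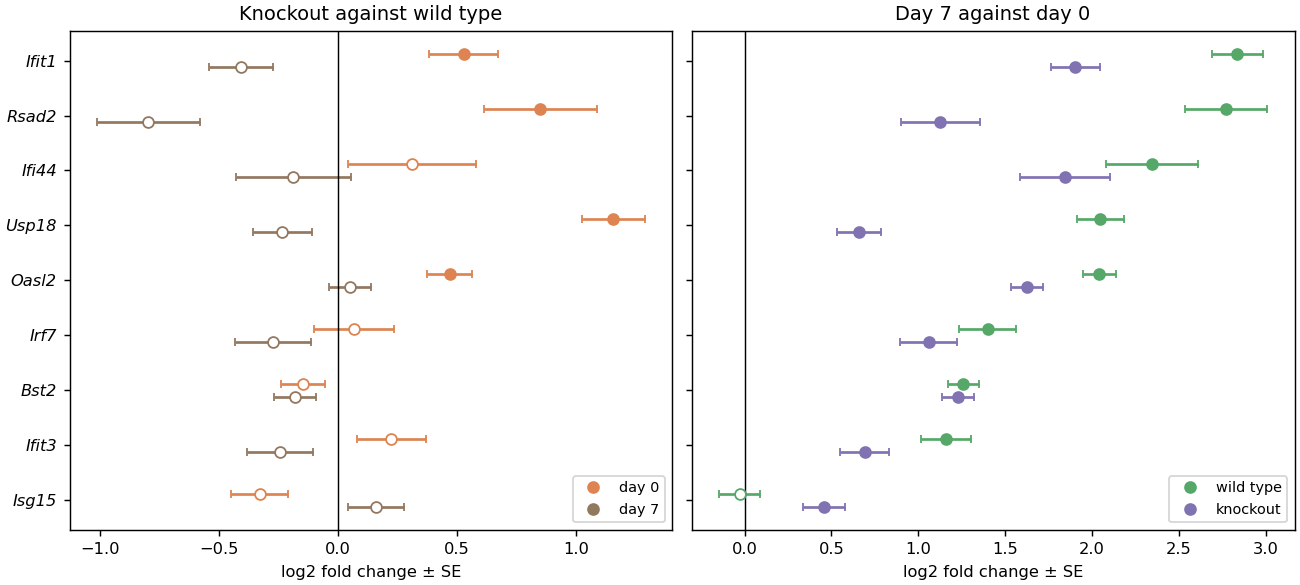
Log2 fold changes with their standard errors from edgeR on the libraries of days 0 and 7, knockout against wild type on the left and day 7 against day 0 on the right. Filled points have an adjusted p under 0.05; every member but Isg15 in wild type is filled on the right, and on the left Usp18, Rsad2, Ifit1 and Oasl2 are filled at day 0 and none at day 7.

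Before injury 4 of the 9 members were higher in the knockout and none was lower, in edgeR's quasi-likelihood test with Benjamini-Hochberg adjustment. Of all genes 38.9% were called at day 0, 19.5% higher and 19.4% lower in the knockout, beside 4 of 9 members, or 44.4%, all higher. Usp18 was higher by 1.16 ± 0.133 (log2 fold change ± SE, edgeR adjusted p = 0.000361) and Rsad2 by 0.85 ± 0.237 (edgeR adjusted p = 0.0216). Ifit1 was higher by 0.53 ± 0.144 (edgeR adjusted p = 0.0205) and Oasl2 by 0.47 ± 0.0955 (edgeR adjusted p = 0.00524). In these 4 genes both knockout libraries stood above both wild-type libraries, and the share of all genes that did so was not computed. The other 5 ranged from -0.33 for Isg15 (edgeR adjusted p = 0.0577) to 0.31 for Ifi44. The calls of Rsad2 and Ifit1 were lost when a day 0 library was left out, Rsad2 without any of the 4 (edgeR adjusted p from 0.0618 to 0.124) and Ifit1 without either wild-type library or knockout replicate 2 (0.0695 to 0.120). With all 12 libraries in the fit none of the 4 was called, Usp18 at an edgeR adjusted p of 0.154, Rsad2 at 0.485, Oasl2 at 0.631 and Ifit1 at 0.700. The members were chosen for the day 21 spread that this fit adds to the error, so it cannot weigh these calls. The summed muscle stem cell markers were lower in the knockout at day 0, at 1230.3 and 1165 CPM against 1888 and 1832 CPM, with 6 of 8 markers called lower. Red blood cell markers were at 204 and 193 CPM against 877 and 883 CPM, with 5 of 5 called lower, and fibro-adipogenic markers at 8046 and 8399 CPM against 14592 and 14773 CPM, with 4 of 6 called lower and 1 higher. Pericyte and smooth muscle markers were at 12201 and 12474 CPM against 8189 and 8232 CPM, with 2 of 4 called higher and 1 lower. Plasmacytoid dendritic cell markers were at 1.43 and 1.51 CPM against 5.53 and 6.46 CPM, with 2 of 3 tested called lower. The macrophage and monocyte list, nearly all of it Lyz2, was at 2941 and 2906 CPM against 1775 and 1808 CPM, with 1 of 7 called higher and 1 lower. Without Lyz2 it was at 9.97 and 10.4 CPM against 9.78 and 11.5 CPM. The part of these cells in the calls was not tested.

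Pathway genes outside the 9 members changed in both directions at day 0, beside 19.5% of all genes higher and 19.4% lower. Of the receptor and JAK-STAT list 5 of 11 were higher and 2 lower in the knockout, with Ifnar1, a receptor subunit, at 0.57 ± 0.0842 (edgeR adjusted p = 0.00111) and the kinase gene Jak1 at 0.30 ± 0.0554 (edgeR adjusted p = 0.00326). Tyk2, the other kinase at the receptor, was called higher (edgeR adjusted p = 0.00291), with 0 counts in both wild-type libraries and 2.55 and 3.72 CPM in those of the knockout. At days 7 and 21 it had 0 counts in every library labelled wild type and in knockout replicate 1, and 3 and 29 counts in knockout replicate 2. Its estimates are therefore uncertain. Of the other interferon-stimulated genes 9 of 42 were higher and 4 lower. Helz2, a transcriptional coactivator, was higher by 0.76 ± 0.148 (edgeR adjusted p = 0.00422), and Ifitm3, which blocks virus entry, was lower at -0.40 ± 0.0737 (edgeR adjusted p = 0.00336). Parp14 was higher by 0.75 ± 0.151 (edgeR adjusted p = 0.00478), but its log2 difference was -0.14 or -0.15 in limma fits on TPM.

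Of the interferon-gamma and antigen presentation list, 8 of 21 genes were lower in the knockout at day 0, 2 were higher and 11 were not called, beside 19.4% of all genes lower and 19.5% higher. The chemokine Cxcl10, at 59.2 and 58.6 CPM in wild type, was at 21.8 and 21.8 CPM in the knockout, -1.45 ± 0.0754 (edgeR adjusted p = 1.53e-05). Cxcl9, a chemokine of the same receptor, was at 5.22 and 4.51 CPM against 0.851 and 0.700 CPM, -2.65 ± 0.214 (edgeR adjusted p = 6.79e-05). B2m, the light chain of class I antigen presentation, was at 582 and 537 CPM against 311 and 281 CPM, -0.93 ± 0.075 (edgeR adjusted p = 6.56e-05). Among sensors and regulatory factors 1 of 17 was higher, Dhx58, and 3 were lower, and among the brakes 2 of 8 were higher, the RNA-editing enzyme Adar and the signalling inhibitor Socs3, and 1 lower, the phosphatase Ptpn2.

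At day 7 none of the 9 members was called between the genotypes in edgeR's quasi-likelihood test, where 7.46% of all genes were, 4.8% higher and 2.66% lower. Without adjustment, 2 members had a p under 0.05, Ifit1 at -0.41 ± 0.134 and Rsad2 at -0.80 ± 0.216, with edgeR adjusted p of 0.119 and 0.0651. Without wild-type replicate 1 of day 7, edgeR called 2 members. DESeq2 called both Ifit1 and Rsad2 lower in the knockout, with adjusted p of 0.0471 and 0.0153. Log2 fold changes of the other 7 ran from -0.27 for Irf7 to 0.16 for Isg15, and 7 of the 9 members were below 0. The median over the members was -0.23, against 0 over all genes tested.

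Pathway genes called between genotypes at day 7 stand beside 4.8% of all genes higher and 2.66% lower. In the knockout, Stat2 was higher by 0.40 ± 0.0893 (edgeR adjusted p = 0.0306), the only call among 11 receptor and JAK-STAT genes, and Tmem173, the adaptor STING, was higher by 0.83 ± 0.193 (edgeR adjusted p = 0.0379), the only call among 17 sensors and regulatory factors. Of the other interferon-stimulated genes 1 of 42 was higher and 2 were lower, of the interferon-gamma list 2 of 21 were higher and 2 lower, or 19% in all, and none of the 8 brakes was called.

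The rise from day 0 to day 7 was smaller in the knockout than in wild type in 4 of the 9 members, by edgeR's test of the interaction, and larger in none. Of all genes 24.8% were called in the interaction, 12.8% more positive and 12% more negative in the knockout. The difference in log2 rise was -1.64 ± 0.321 for Rsad2 (edgeR adjusted p = 0.00803) and -1.39 ± 0.182 for Usp18 (edgeR adjusted p = 0.00137). It was -0.93 ± 0.197 for Ifit1 (edgeR adjusted p = 0.0112) and -0.42 ± 0.13 for Oasl2 (edgeR adjusted p = 0.0466), whose call was lost under 14 of 17 alternatives. In these 4 genes the knockout was higher at day 0, and at day 7 its libraries lay below those of wild type in Rsad2, Usp18 and Ifit1 and overlapped with them in Oasl2. The share of all genes with the knockout below wild type without overlap at day 7 was not computed. EdgeR called none of these day 7 differences, and DESeq2 called those of Rsad2 and Ifit1. The median over the members was -0.47, against 0.03 over all genes tested, and the other 5 ran from -0.50 for Ifi44 to 0.49 for Isg15. With all 12 libraries in the fit none of the 4 was called (edgeR adjusted p from 0.268 to 0.805). That fit adds the day 21 spread for which the members were chosen, so it cannot weigh the 4 calls.

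Among cell type markers in the same interaction, 4 of 8 of muscle stem cells, 3 of 6 of fibro-adipogenic progenitors and 2 of 3 tested of plasmacytoid dendritic cells were called more positive in the knockout, as were 1 of 4 of Schwann cells and 1 of 5 of muscle fibres, and 1 of 6 endothelial markers was called more negative. The part of these cells in the 4 calls was not tested.

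In the other lists, the interaction was also negative for Cmpk2 and Helz2, at -0.95 ± 0.167 and -1.08 ± 0.209 (edgeR adjusted p = 0.00499 and 0.00754). Of the 42 other interferon-stimulated genes 8 were called more negative and 1 more positive, beside 12% and 12.8% of all genes. The positive one was Ifitm3, at 0.48 ± 0.104 (edgeR adjusted p = 0.0112). Cmpk2 rose by 0.51 ± 0.118 in wild type and fell in the knockout, at -0.44 ± 0.118 (edgeR adjusted p = 0.00579 and 0.0118). Helz2 changed by 0.11 ± 0.148 in wild type and fell in the knockout, at -0.96 ± 0.149 (edgeR adjusted p = 0.545 and 0.000552). Cxcl10 and Cxcl9 rose in both genotypes and by more in the knockout, with differences of 1.04 ± 0.103 and 2.28 ± 0.263 (edgeR adjusted p = 0.000466 and 0.00085). Over injury as a whole, 22 of 42 other interferon-stimulated genes rose in wild type and 4 fell, and 17 rose and 7 fell in the knockout. Of all genes 27.9% rose and 26.1% fell in wild type, and 27.6% rose and 26.6% fell in the knockout. The largest rises there included Ifi204, a DNA sensor of the same family as Mndal, at 4.70 ± 0.274 in wild type and 3.77 ± 0.259 in the knockout (edgeR adjusted p = 2.98e-06 and 6.11e-06). The receptor and JAK-STAT list rose in 2 and fell in 5 of 11 genes in each genotype, with the interferon-gamma receptor subunit Ifngr2 up by 0.92 ± 0.0775 and 1.43 ± 0.0791 and Irf9 down at -0.57 ± 0.0635 and -0.53 ± 0.0637 (edgeR adjusted p = 1.51e-05, 1.02e-06, 8.34e-05 and 0.000114). Of the 17 sensors, adaptors and regulatory factors 9 rose and 3 fell in wild type, and 7 rose and 4 fell in the knockout. Of the 21 genes of the interferon-gamma list 5 rose and 6 fell in wild type, and 10 rose and 6 fell in the knockout. Irf1, a transcription factor of the interferon-gamma response, fell in both genotypes, at -1.03 ± 0.052 in each (edgeR adjusted p = 7.7e-07 and 5.92e-07), while 8 or more of the 9 members rose.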

How the data were processed

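Per the labels, cDNA was made from total RNA of sorted cells with the SMART-Seq v4 protocol and sequenced as single-end reads. The authors deposited estimated counts per gene, not normalised, and a table of the same genes in TPM, and the submitters' processing notes name kallisto 0.46.1 and the builds mm10 and GRCm38.p6, with no role given. Another deposited table of 21782 genes holds regularised values on a log2 scale that the authors corrected for a batch they do not name, and it entered no test. No counting by strand is given in the sources used here, so reads of overlapping genes on opposite strands cannot be told apart.

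Estimated counts were rounded and filtered with filterByExpr of edgeR 4.0.16. TMM factors over 12 libraries lay between 0.915 and 1.09, and log2 CPM added a prior count of 2. One mean per group was fitted to the 8 libraries of days 0 and 7 with robust quasi-likelihood and 4 residual degrees of freedom, and p-values were adjusted by Benjamini-Hochberg over 15672 genes for each of 5 comparisons. Day 21 stayed out because it chose the genes and because Sesn2 goes against the labels of 2 of its libraries. Alternatives were DESeq2 1.42.0, its size factors, other count filters, a replicate block, all 12 libraries, limma 3.58.1 on log2(TPM + 1) and log2(TPM + 0.1), and leaving out each library. The fits were tested on simulated data.

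The 9 genes, the pathway lists and the marker lists were chosen with earlier results of these data known. The members are named throughout, with up to 3 called genes per list and comparison by smallest adjusted p, and at day 21 up to 3 with the largest ratio among those at 10 CPM or more. The list symbols Rigi, Sting1 and Cgas were read under older names, and the macrophage marker Adgre1 was not analysed here. A gene of the pathway lists that the rule names is not reported here. Near copies were sought with BLAST 2.17.0 among GENCODE M21 transcripts. Analyses ran in R 4.3.3 and Python 3.11.15, with figures in matplotlib 3.10.9.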

Additional observations from a re-analysis of the deposited data

Results flagged for a closer look

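The change from day 0 to day 7 differed between the genotypes in 4 of the 9 genes, by edgeR's test of the interaction on 8 libraries. Of all genes 24.8% were called in it, 12.8% more positive and 12% more negative in the knockout. Knockout minus wild type, the difference in log2 change was -1.64 for Rsad2, -1.39 for Usp18, -0.93 for Ifit1 and -0.42 for Oasl2, the last of which lost its call under 14 of 17 alternatives. Each was higher in the knockout than in wild type at day 0.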

How the results depend on the processing

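All members called kept the sign of their log2 fold change under every alternative run. With all 12 libraries in one fit, members called fell from 4 to 0 at day 0, from 9 to 2 for injury in the knockout and from 4 to 0 in the interaction, and genes called at day 7 and in the interaction fell to 280 and 2141, because the day 21 spread enters the error. The members were chosen for this spread, so their lost calls cannot weigh those of the main fit. Between genotypes at day 7, members called were 2 with DESeq2, 1 without a count filter and 1 with a minimum of 10 counts throughout, and limma on TPM called 680, 640 and 438 genes against 1169. In the interaction, limma on TPM without a filter called 2250 genes and 2 members. Leaving out 1 library gave 2 to 5 members and 3522 (without knockout replicate 2) to 6916 genes at day 0, 0 to 2 and 406 (without wild-type replicate 1) to 1792 (without knockout replicate 2) at day 7, and 3 to 4 and 2183 to 4404 in the interaction. Parp14 at day 0 turned to -0.14, -0.15 and -0.14 in the limma fits. At day 21 the median ratio moved to 1.23 and 1.47 on log2(TPM + 1) and to -0.059 and 0.77 in the batch-corrected values; the cause was not tested. Replicate numbers did not pair the libraries: deviations correlated at 0.04 at day 0, -0.14 at day 7 and 0.07 at day 21. With the replicate block 4 members were called at day 0 (5599 genes), 0 at day 7 (877 genes) and 3 in the interaction (3341 genes). With the day 7 wild-type numbers crossed, chosen after seeing the data, 1 member and 1012 genes were called at day 7. Ifi44, at 36 to 267 counts, is the member most limited by depth.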
